A study of Mus musculus with 3 samples.

Results

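The genes described here encode the ligands, the secreted ligand-binding proteins and the ligand-cutting proteases of the Activin and TGF-beta branch of signalling. They were chosen by symbol, as 4 ligand genes (Inhba, Inhbb, Tgfb1 and Tgfb2), 3 genes named for follistatin (Fst, Fstl1 and Fstl3) and 2 proprotein convertase genes (Furin and Pcsk6). All 9 were found among the 22180 genes of the platform annotation, each with 1 probe set. Total RNA was measured on Mouse Gene 2.0 ST arrays, 1 array per culture, so no difference between cultures was tested against the spread between cultures. All 3 cultures came from EB3, an established line of mouse embryonic stem cells (mESCs), and grew in N2B27, a serum-free medium. The Activin+PD culture held mESCs for 64 days with 20 ng/ml Activin A and 2 µM PD0325901, an inhibitor of MEK. The 2i culture held mESCs for 34 days with the same 2 µM of PD0325901 and, in place of Activin A, CHIR99021 at 2 µM, an inhibitor of GSK3. The mEpiSC culture held mouse epiblast stem cells (mEpiSCs) induced from EB3, whose medium contained bFGF at 12 ng/ml beside Activin A at 20 ng/ml. The sources used here do not state how long the mEpiSCs had been grown, nor a genotype or strain beyond the line's name.

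Activin A is a dimer of the product of Inhba. It binds a pair of receptor kinases that phosphorylate SMAD2 and SMAD3, a route also used by Nodal and the TGF-betas. The ligands are made as precursors that furin-like convertases cut, and follistatin holds the mature Activin dimer away from its receptors. In the mouse embryo this branch patterns the epiblast, and in culture it keeps mEpiSCs in the primed state. The arrays read the RNA of the cells, so Activin A protein added to the medium does not enter these values.

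Background was set on each array at the 95th percentile of probe sets for olfactory and vomeronasal receptors, genes not expected in these cells. On the log2 scale it was 5.50 in Activin+PD, 5.59 in 2i and 5.57 in mEpiSC, and between 13341 and 13773 genes lay above it. Markers of the naive state had a summed intensity of 8179 in Activin+PD, 7327 in 2i and 453 in mEpiSC, and markers of the primed state 1499, 1489 and 6438. These sums did not go against the labels, though the primed markers Sox3 and Zic2 were within 2-fold between mEpiSC and 2i, at 0.86 and 0.16. Of the 6 primed markers, Otx2 and Fgf5 were also higher in Activin+PD than in 2i, by at least 2.22 and by 1.48, while Dnmt3b was at -0.60. The 5 core pluripotency markers were above background on every array, with summed intensities of 9897.5 in Activin+PD, 8513.2 in 2i and 4671.5 in mEpiSC. From 2i to mEpiSC, Nanog was at -1.995, Sox2 at -1.17 and Sall4 at -0.09, while Pou5f1 was at 0.15 and Lin28a at 0.98. Of 8 fibroblast markers, which would show feeder cells, 5 were above background on each array, with summed intensities between 457 and 533, and Postn, Dcn and Lum were below it on all 3. The deposited values had been normalised between arrays, and fewer cells of a type and less RNA per cell cannot be told apart in them. Where 2 probe sets measured the same gene, in 497 genes, the error of a log2 difference (SD per probe set) was 0.24 between the mESC cultures. It was 0.33 between mEpiSC and 2i and 0.30 between mEpiSC and Activin+PD. That error covers probe sets and not cultures, and is given below as the probe set SD.

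Of the 9 genes, 8 were above background on every array and Inhba on none. With background at the 90th percentile Inhba entered every comparison, and at the 99th Inhbb and Tgfb2 left every comparison. Between Activin+PD and 2i, 0 of 8 genes compared were 2-fold apart, where 2.2% of 14012 genes were (1.38% higher and 0.821% lower in Activin+PD). That count depended on the threshold: at 1.5-fold, Pcsk6 was higher and Tgfb2, Fst and Fstl1 lower in Activin+PD, where 637 genes were higher and 359 lower. Between mEpiSC and 2i, 4 of 8 were at least 2-fold apart, where 9.5% of 14205 genes were, with Fst and Tgfb1 higher and Fstl1 and Pcsk6 lower in mEpiSC. The same 4 genes were apart in the same directions between mEpiSC and Activin+PD, where 8.97% of 14378 genes were. The mEpiSC array is common to both counts, so the second count is not separate evidence. The median log2 difference of the 8 genes was 0.17, 0.28 and 0.18 in the 3 comparisons, against -0.0057, 0.031 and 0.042 over all genes compared.

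**Figure D1:**
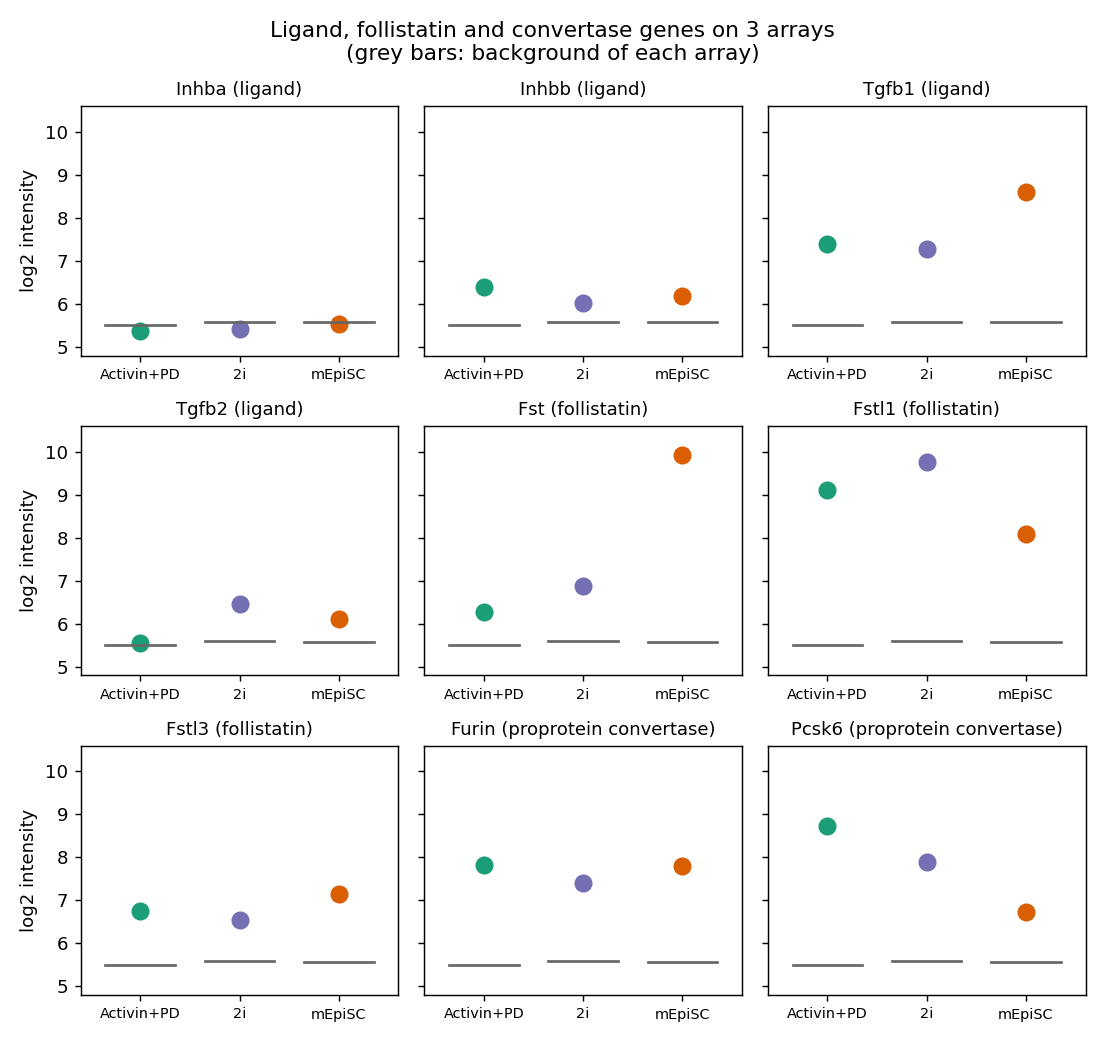
Log2 intensity of each of the 9 genes (vertical axis) for the arrays of the 3 cultures (horizontal axis), 1 point per array, with a grey bar at that array's background. Fst stands at 9.93 in mEpiSC against 6.27 and 6.88 in the mESC cultures, Pcsk6 is highest in Activin+PD at 8.73, and Inhba lies below the bar on all 3 arrays.

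The ligand genes bear on the cells' own supply of signal. Inhba, which encodes the subunit of Activin A, had a log2 intensity of 5.38 in Activin+PD, 5.41 in 2i and 5.55 in mEpiSC. None of these exceeded background, so no difference is given for it. The closest was mEpiSC, 0.026 below the background of that array. Inhbb encodes the subunit of Activin B. It stood at 6.39 in Activin+PD, 6.02 in 2i and 6.18 in mEpiSC. It was above background on all 3 arrays, by 0.43 to 0.88, and highest in Activin+PD. Its difference between Activin+PD and 2i was 0.37, or 1.29-fold, and 16.7% of the genes compared were at least that far apart. The differences of mEpiSC from 2i and from Activin+PD were 0.16 and -0.20, both under the probe set SD.

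Tgfb1 encodes TGF-beta 1, a ligand secreted in a latent complex that signals through receptors other than those of Activin and converges on the same SMADs. Its log2 intensity was 7.40 in Activin+PD, 7.28 in 2i and 8.61 in mEpiSC. The mESC cultures were close to each other and mEpiSC stood apart from both. Tgfb1 was 2.51-fold higher in mEpiSC than in 2i (log2 difference 1.33), where 4.53% of genes were at least 2-fold higher, and it ranked 401st from the top. Against Activin+PD it was 2.31-fold higher (1.21), where 3.59% of genes were. The difference of 0.12 between Activin+PD and 2i was below the probe set SD.

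Tgfb2 encodes TGF-beta 2, a related ligand. Its log2 intensity was 5.54 in Activin+PD, 6.46 in 2i and 6.12 in mEpiSC. In Activin+PD it was only 0.038 above background, while 2i was the highest array. It was the member furthest apart between the mESC cultures, at -0.92, or 1.89-fold lower in Activin+PD, and 2.73% of genes compared were at least as far apart. Subtracting 16 from each intensity, as a test for a constant in the deposited values, took the difference to -1.24 and past 2-fold. In mEpiSC it was -0.34 from 2i and 0.58 from Activin+PD. Tgfb1 and Tgfb2 thus had different orders over the arrays, with mEpiSC highest for Tgfb1 and 2i highest for Tgfb2.

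**Figure D2:**
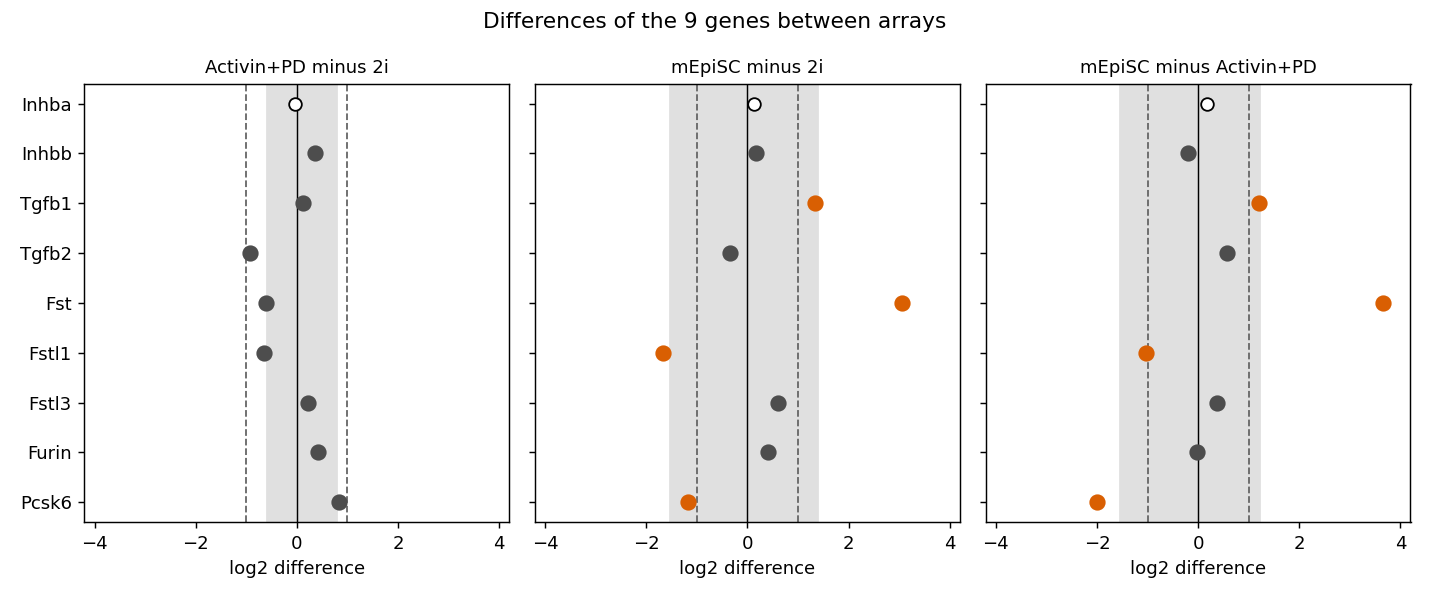
Log2 differences (horizontal axis) of the 9 genes in the 3 comparisons. Dashed lines mark 2-fold, the grey band holds the central part of all genes compared, 95% of them, orange points are at least 2-fold apart, and the open point is Inhba, not above background. Fst is the furthest point in both comparisons with mEpiSC, at 3.05 and 3.65, and no point is orange between the mESC cultures.

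The follistatin genes went in different directions in mEpiSC. Fst encodes follistatin, which binds Activins nearly irreversibly and is itself a target of Activin signalling in many cell types. Its intensity was 77.4 in Activin+PD, 118 in 2i and 974 in mEpiSC, or 6.27, 6.88 and 9.93 on the log2 scale. The mEpiSC array was far above both mESC arrays, and the Activin+PD array was the lowest. Fst was 8.28-fold higher in mEpiSC than in 2i and 12.6-fold higher than in Activin+PD. It ranked 40th of 14205 and 11th of 14378 genes from the top in these comparisons. Both mEpiSC and Activin+PD cells received 20 ng/ml Activin A, and they differed in bFGF, the MEK inhibitor and cell state, which cannot be told apart here. Between the mESC cultures, Fst was lower in Activin+PD at -0.60, or 1.52-fold, about 2.47 times the probe set SD. Those cultures differed in Activin A, CHIR99021 and days in culture, which cannot be told apart in any difference between them.

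Fstl1 encodes a secreted glycoprotein of the SPARC family that is known as a BMP antagonist in the developing mouse lung. Its log2 intensity was 9.11 in Activin+PD, 9.77 in 2i and 8.09 in mEpiSC. It ran opposite to Fst over the states, with mEpiSC the lowest array. Fstl1 was 3.20-fold lower in mEpiSC than in 2i (-1.68), where 4.96% of genes were at least 2-fold lower. Against Activin+PD it was 2.03-fold lower (-1.02), where 5.38% of genes were. That difference passed 2-fold by a narrow margin and was -0.996 after a further quantile normalisation. Activin+PD was also below 2i, at -0.66 or 1.58-fold.

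Fstl3 encodes a second Activin-binding protein of the follistatin type. It stood at 6.76 in Activin+PD, 6.54 in 2i and 7.14 in mEpiSC. The order was that of Tgfb1, with mEpiSC highest and 2i lowest, but all 3 arrays were within 2-fold. Between the mESC cultures it differed by 0.22. It was higher in mEpiSC than in 2i by 0.60, or 1.52-fold, and than in Activin+PD by 0.38. Of these only mEpiSC minus 2i was more than 1.5 times apart, and 19.3% of the genes compared were at least as far apart there.

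The convertases also separated. Furin encodes the ubiquitous convertase of the secretory pathway. Its log2 intensity was 7.83 in Activin+PD, 7.40 in 2i and 7.81 in mEpiSC. Activin+PD and mEpiSC were close, the second at -0.025 from the first, and both were above 2i, by 0.43 and 0.40. Those differences were 1.34-fold and 1.32-fold, and 12.7% and 31.0% of genes compared were at least as far apart.

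Pcsk6 encodes PACE4, a secreted convertase that, like furin, cuts the Nodal precursor. Its log2 intensity was 8.73 in Activin+PD, 7.90 in 2i and 6.72 in mEpiSC. No other member had this order, with Activin+PD highest and mEpiSC lowest. Pcsk6 was 4.02-fold lower in mEpiSC than in Activin+PD (-2.01) and 2.26-fold lower than in 2i (-1.17). It was 1.78-fold higher in Activin+PD than in 2i (0.83), the highest of the 8 members in that comparison, and 3.42% of genes were at least as far apart. Activin+PD and mEpiSC were the cultures furthest apart in Pcsk6, while Furin hardly differed between them. Both media held Activin A, and the cultures differed in bFGF, the MEK inhibitor and cell state, which cannot be told apart here.

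RefSeq promoter windows, the 250 bases before an annotated start, were matched by gene identifier for 8 members in 9 windows (build GRCm38.p6), and Fst had no entry. They were searched on both strands for letters bound by factors that the added agents act on. The letters were CAGAC for SMADs, AATNNACA for FOXH1, TGANTCA for AP-1, CCGGAAG for ETS factors and CTTTGA for TCF/LEF, with GGGCGG for the GC box. The 3 windows of the members at least 2-fold apart that had an entry, and that of Fstl3 as a follistatin within 2-fold, are shown with every match in capitals. The GC boxes of Fstl3 overlapped in pairs, and no match of one motif overlapped another motif.
Tgfb1 (chr7:25686752-25687001, plus strand): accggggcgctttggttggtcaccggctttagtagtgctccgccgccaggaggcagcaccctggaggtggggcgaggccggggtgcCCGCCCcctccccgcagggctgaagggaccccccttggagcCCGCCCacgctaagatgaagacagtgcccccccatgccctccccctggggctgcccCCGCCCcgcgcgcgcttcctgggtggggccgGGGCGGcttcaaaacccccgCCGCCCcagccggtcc
Fstl1 (chr16:37776805-37777054, plus strand): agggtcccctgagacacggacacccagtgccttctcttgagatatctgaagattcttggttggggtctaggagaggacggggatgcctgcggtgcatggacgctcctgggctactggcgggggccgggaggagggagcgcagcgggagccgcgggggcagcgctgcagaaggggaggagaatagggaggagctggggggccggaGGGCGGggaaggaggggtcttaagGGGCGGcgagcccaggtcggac
Pcsk6 (chr7:65861886-65862135, plus strand): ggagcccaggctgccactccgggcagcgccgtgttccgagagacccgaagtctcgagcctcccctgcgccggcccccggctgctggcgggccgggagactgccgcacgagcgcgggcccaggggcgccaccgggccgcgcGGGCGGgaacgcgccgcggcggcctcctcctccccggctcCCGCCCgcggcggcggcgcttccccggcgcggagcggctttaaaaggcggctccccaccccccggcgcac
Fstl3 (chr10:79777024-79777273, plus strand): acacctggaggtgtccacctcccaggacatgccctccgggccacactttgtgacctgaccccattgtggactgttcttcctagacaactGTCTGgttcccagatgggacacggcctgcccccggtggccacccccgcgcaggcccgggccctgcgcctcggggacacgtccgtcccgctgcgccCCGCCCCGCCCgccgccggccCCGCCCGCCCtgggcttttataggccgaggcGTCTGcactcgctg
The windows of Tgfb1, Fstl1 and Pcsk6 held GC boxes, 5, 2 and 2 of them, and none of the other letters. Fstl3 held CAGAC or its complement at 2 places, the first 161 and the second 14 bases before the start.

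Over the members, CAGAC letters were in the windows of 3 genes (Tgfb2, Fstl3 and Furin), in 4 of 9 windows, against 42.2% of 32851 RefSeq windows of the same length. GC boxes were in 6 of 9 windows against 32.7%, and the base composition of the members' windows ran from 43.2% to 83.2% G and C against a median of 52.4%. CTTTGA was in 1 window, that of Inhba, against 13.8%. The FOXH1, AP-1 and ETS letters were in 0 of 9, against 10.9%, 6.75% and 6.91%. The windows of Inhba and Tgfb2, and the Furin window with GC boxes, lay inside the span of their gene, before inner starts. The matches counted here are matches of letters in a short window and say nothing of where the factors bind.

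Genes with the most similar values over the 3 arrays were taken among 14522 genes above background on at least 1 array. Likeness was the Euclidean distance between log2 values centred on each gene's mean. For Fst these were Epcam, an epithelial adhesion gene, at a distance of 0.25, Has2, a hyaluronan synthase gene, at 0.27, and Ppp4r4, a phosphatase regulator gene, at 0.27. Only 12 genes lay within 0.5 of Fst, whereas 704 did for Tgfb1, 282 for Fstl1 and 166 for Pcsk6. The nearest to Tgfb1 were Pla2g7, Abcc1 and Oasl2, those to Fstl1 Pkd2l1, Mt1 and Mir667, and those to Pcsk6 Plk3, Prrt3 and Six4. The nearest distances for these 3 members ran from 0.020 to 0.097. With 3 arrays such a likeness has little power to single out genes.

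The rest of the pathway was read from 7 lists of 110 genes, of which 103 were on the array. Between Activin+PD and 2i, 5 of 75 compared were at least 2-fold higher and 2 lower, together 9.33% against 2.2% over all genes. Between mEpiSC and 2i, 10 of 82 were higher and 6 lower (19.5% against 9.5%). Between mEpiSC and Activin+PD, 5 of 83 were higher and 7 lower (14.5% against 8.97%). The medians were 0.087, 0.11 and 0.053. The lists were chosen with earlier results of these data known, so their shares are no independent evidence.

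In the list set up for other ligands of the SMAD2/3 branch, 5 of 10 genes were compared. Only Gdf3 was 2-fold apart, in both comparisons with mEpiSC, where 9.5% and 8.97% of all genes compared were. Nodal, the ligand of the early epiblast that furin and PACE4 process, stood at 9.12 in Activin+PD, 8.68 in 2i and 8.57 in mEpiSC. Its levels were within 2-fold on all arrays, and Activin+PD was the highest. Inha, Inhbc and Gdf11 were within 0.12 in every comparison, but Inhbc in 2i, at 5.62, barely exceeded the background of 5.59. Gdf9, Mstn, Tgfb3, Inhbe and Bmp15 were not above background on any array. The list took in Inha, which encodes an inhibin subunit, and Bmp15, a BMP gene by name. Its counts are therefore of listed genes and not of a ligand supply. Of 16 genes in the BMP and GDF list, which includes Bmp1 and Amh, 12, 11 and 12 were compared in the 3 comparisons. Of those compared, 0 were 2-fold apart, where 2.2%, 9.5% and 8.97% of all genes compared were. In a list this short, 0 is near those shares. Bmp4 came closest, at -0.92 for Activin+PD minus 2i, nearly the same as Tgfb2.

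Genes that carry the follistatin domain outside this group were mostly alike. Smoc1, a secreted matrix protein gene, was at 8.79 in Activin+PD, 8.85 in 2i and 6.88 in mEpiSC, so that mEpiSC was at -1.96 from 2i and -1.90 from Activin+PD, the direction of Fstl1. Tmeff1, a membrane protein gene with follistatin modules, was at -1.39 in mEpiSC from Activin+PD, but a second probe set gave -0.38. Sparc and Agrn stayed within 2-fold. The antagonists and co-receptors held more apart genes than any other list, 4 of 15, 7 of 17 and 5 of 17 in the 3 comparisons. Over all genes compared the shares were 2.2%, 9.5% and 8.97%. Among the apart genes were Lefty1, Lefty2, Cer1 and Tdgf1. Eng, which encodes the co-receptor endoglin, was near 9.79 and 9.80 in the mESC cultures and 6.99 in mEpiSC. Chrd, a BMP antagonist gene, was just past 2-fold higher in mEpiSC than in 2i, at 6.67 against 5.67. Tgfbr3, the betaglycan gene that presents TGF-beta 2 and inhibin, was at 6.86 in Activin+PD, 9.36 in 2i and 7.61 in mEpiSC. Its order was that of Tgfb2, with 2i highest and Activin+PD lowest.

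Of 18 genes that store or free latent TGF-beta, 6 were at least 2-fold higher in mEpiSC than in 2i and 0 lower, where 4.53% of all genes compared were higher and 4.96% lower. The list median was 0.16, and mEpiSC was also the culture with the highest Tgfb1. Thbs1 encodes thrombospondin 1, an activator of latent TGF-beta. It was at 8.87 in mEpiSC, 6.20 in Activin+PD and below background in 2i, so it was higher by at least 3.28 than in 2i and by 2.67 than in Activin+PD. Mmp14 was higher than in 2i by 1.85, Mmp2 by 1.52, Itgb1 by 1.20 and Plat by 1.13. Itgb8, an integrin gene, was below background in both mESC cultures, so that its bounds, at least 0.88 over 2i and at least 0.97 over Activin+PD, stayed under 2-fold although its measured values counted as apart. Against Activin+PD, 3 of 18 were higher (Thbs1, Mmp2 and, by its measured values, Itgb8) and 0 lower, where 3.59% and 5.38% of all genes compared were. The binding protein gene Ltbp1 was highest in Activin+PD, at 7.04 against 6.10 in 2i and 6.38 in mEpiSC.

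The other convertases hardly differed between the arrays. Pcsk4, Pcsk5 and Pcsk7 stayed within 0.11 in every comparison, and Mbtps1 within 0.12. Pcsk1 was not above background on any array. Pcolce2, which enhances procollagen processing, was the list member apart, at 8.84 in Activin+PD, 7.35 in 2i and 7.58 in mEpiSC, so that it was highest where Pcsk6 was highest. Among receptors and SMADs, Smad7 was higher and Acvr1b lower in Activin+PD than in 2i, at 1.05 and -1.20. Of these genes, 1 of 12 was lower in mEpiSC than in 2i, again the Activin receptor gene Acvr1b, where 4.96% of all genes were. Between mEpiSC and Activin+PD 0 of 12 were apart, where 8.97% of all genes were. With 12 genes compared, such counts are near those shares.

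**Figure D3:**
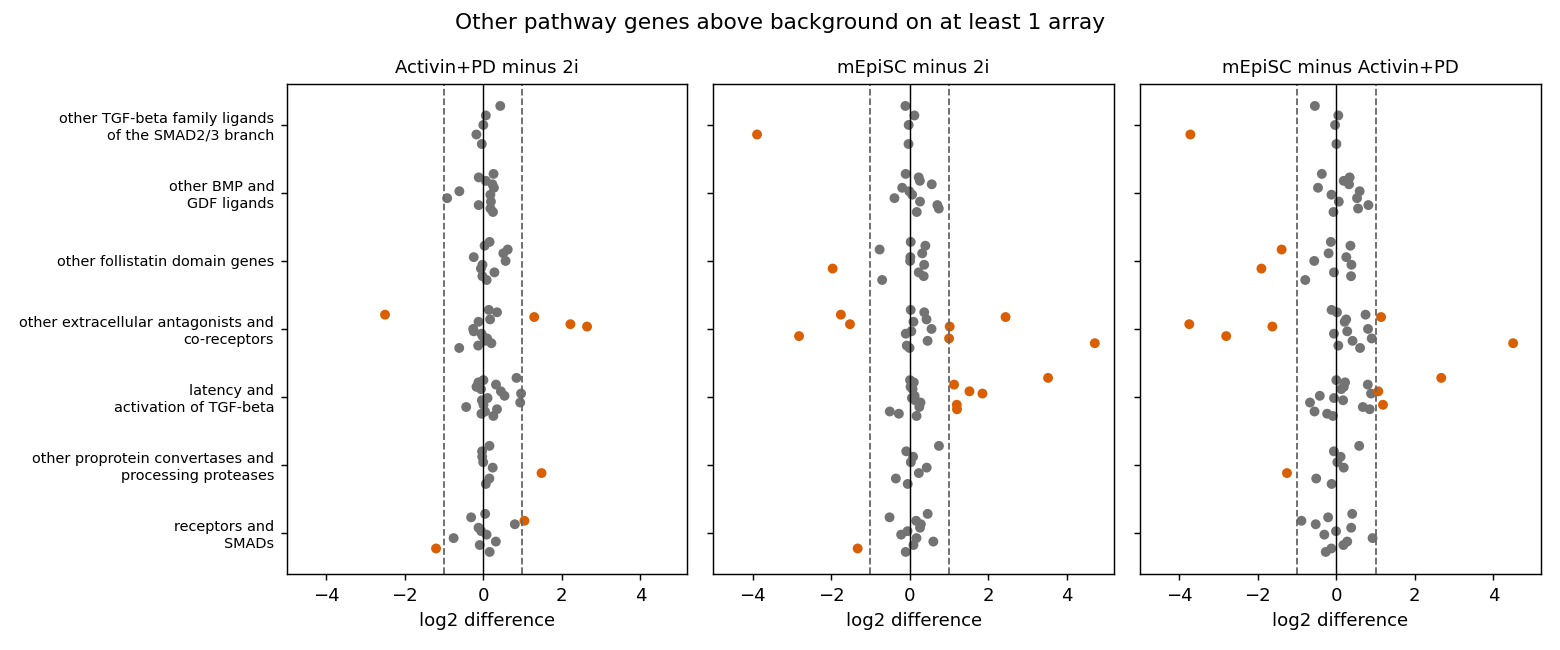
Log2 differences (horizontal axis) of the other pathway genes above background on at least 1 array, by list (vertical axis), in the 3 comparisons. Each point is a gene, placed apart vertically for clarity, orange where its measured values counted as at least 2-fold apart, and dashed lines mark 2-fold. In the latency and activation list all 6 orange points of mEpiSC minus 2i lie on the right.

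Some markers of other cell types differed between the same arrays. Definitive endoderm markers had a summed intensity of 472 in Activin+PD, 402 in 2i and 867 in mEpiSC, and 5 of 5 were above background on each array. Primitive and extraembryonic endoderm markers summed to 487, 463 and 631, with 6, 5 and 7 of 8 above background, and Sox7 was below it on all 3 arrays. Gata6 was above background only in mEpiSC, at 7.09. Trophectoderm markers summed to 639, 848 and 1003, with 5 of 6 above background on each array and Elf5 below it on all 3. They did not move together: from 2i to mEpiSC, Eomes was at 2.38, Cdx2 at -2.73, Tfap2c at -1.06 and Hand1 at -0.053. Whether cells of these types were present, or the mEpiSCs themselves expressed the markers, was not tested. Nor was any part of such cells in the levels of Fst, Tgfb1 and Thbs1 in mEpiSC.

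**Figure D4:**
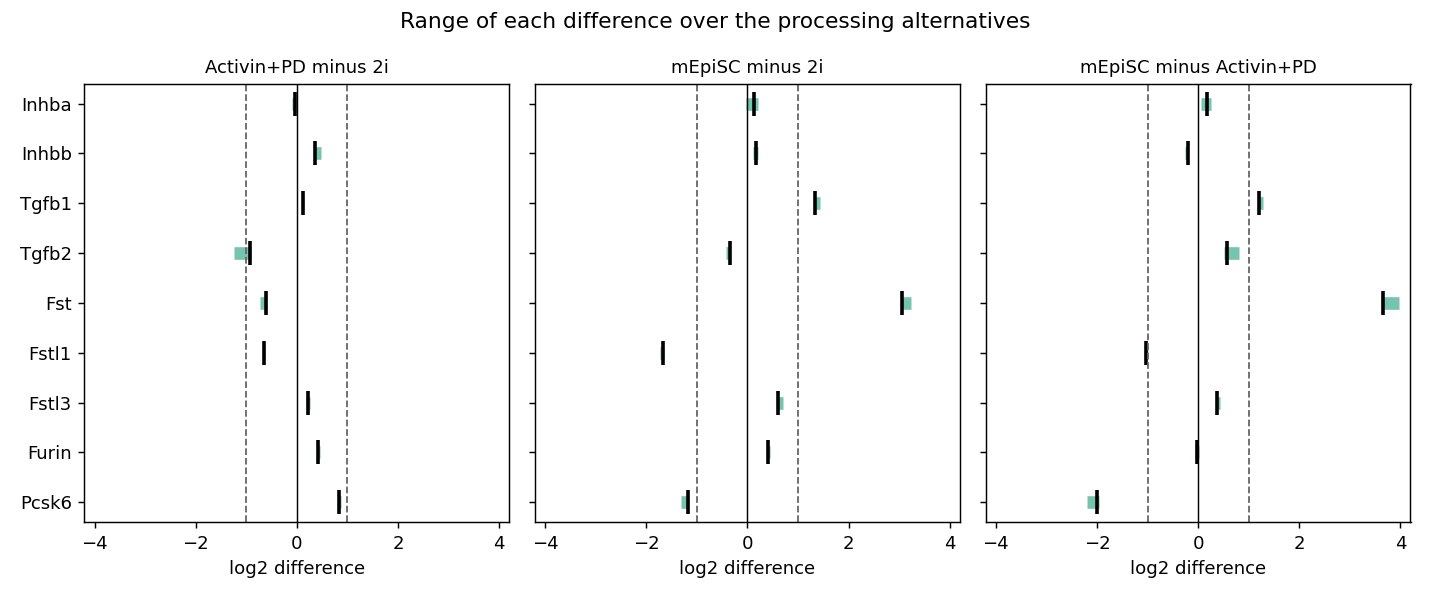
Range of the log2 difference (horizontal axis) of each of the 9 genes over the processing alternatives, green bars, with the reported value as a black tick, in the 3 comparisons. Dashed lines mark 2-fold. Fst, Tgfb1 and Pcsk6 stay past the lines in both comparisons with mEpiSC, while the bars of Fstl1 for mEpiSC minus Activin+PD and of Tgfb2 for Activin+PD minus 2i reach across one.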

How the data were processed

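RNA was labelled with the GeneChip WT PLUS kit and hybridised to Affymetrix Mouse Gene 2.0 ST arrays, and GeneSpring GX 11.5 was used for analysis, per the labels and the series' design text. The submitters' processing notes name RMA. The deposited values were linear intensities whose minimum was 18.9 to 19.1 on every array, and log2 of each deposited intensity was taken here. The sources used here do not say whether a constant had been added.

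Of 33793 probe sets, 23521 had 1 gene symbol, 1814 had several and were not used, and 8458 were unnamed here. Symbols were updated through Entrez identifiers for 23328. A gene with more than 1 probe set was read from that with the highest mean. Background was taken from 1402 receptor probe sets. Genes entered a comparison where the brighter of 2 arrays exceeded its background and were counted as apart at 2-fold or more. Where the dimmer array was below background, its background gave the bound written as "at least". The number of arrays, 1 per group, limits the precision, and no p-value was computed.

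The text names every member, other pathway genes at least 2-fold apart or among the 3 highest of their list (some given only as counts), the 3 genes nearest to each member that was apart, and cell type markers. Bmp4 beside Tgfb2, Ltbp1 and the list genes given as within 2-fold or below background were picked after their values were seen. The members and lists were chosen with earlier results of these data known. Python 3.11.15, pandas 2.3.3, numpy 2.4.6, statsmodels 0.14.6 and matplotlib 3.10.9 were used.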

Additional observations from a re-analysis of the deposited data

How the results depend on the processing

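The 11 alternatives gave 297 values of the members' differences, of which 295 moved by less than the probe set SD, 2 by more and 0 turned a called direction. The 2 were Tgfb2 for Activin+PD minus 2i (-1.24) and Fst for mEpiSC minus Activin+PD (3.96), both with 16 subtracted before log2. The 90th and 99th percentile backgrounds, the lack of a filter on dim probe sets and the 1.5-fold threshold could not change a difference. Raising values below background to it moved only Inhba. The other members could move only under subtraction of 16, median centring, quantile normalisation or removal of a lowess trend. The 295 thus hold many values fixed beforehand. Fst in mEpiSC ranged from 8.16-fold to 9.42-fold over 2i and from 12.3-fold to 15.6-fold over Activin+PD. With 16 subtracted, 1 member was at least 2-fold lower in Activin+PD than in 2i where 0 had been. The other pathway genes counted as higher then went from 5 to 8 for Activin+PD minus 2i and from 5 to 8 for mEpiSC minus Activin+PD, and those of all genes from 193 to 295 for Activin+PD minus 2i. After quantile normalisation, 1 member and not 2 was at least 2-fold lower in mEpiSC than in Activin+PD, since Fstl1 stood at -0.996. At a 1.5-fold threshold, which admits more genes by construction, 1 member was higher and 3 were lower in Activin+PD than in 2i. The other pathway genes were then 10 higher and 6 lower for Activin+PD minus 2i and 16 higher for mEpiSC minus Activin+PD. All genes at 1.5-fold were 637 higher and 359 lower, 1351 higher and 1455 lower (644 and 705 at 2-fold), and 1256 higher and 1574 lower (516 and 773), in the order of the comparisons. The other counts stayed within 1.5 times. The small differences of Inhba for mEpiSC minus 2i and of Furin for mEpiSC minus Activin+PD, not called, changed sign under 1 alternative each. Each member had 1 probe set, so the probe set choices could not move them. No paired analysis was possible because each group had 1 array. Signal over background limits Inhba, Inhbb and Tgfb2: with background at the 90th percentile all 9 members were compared, and at the 99th 6, without Inhba, Inhbb and Tgfb2. Of the other pathway genes, 41, 47 and 49 were compared at the 99th percentile, in the order of the comparisons, with unchanged counts of genes apart.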
